A study of Mus musculus with 12 samples.

Results

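Fibronectin and the matricellular proteins are described here by 10 genes, Fn1, Tnc, Postn, Thbs1, Thbs2, Sparc, Spp1, Ccn1, Ccn2 and Cthrc1, of the 55414 genes in the table. The genes were chosen by name, were each matched to 1 Ensembl identifier, and all 10 passed the filter on low counts. RNA-seq was performed on the inferior vena cava (IVC) of 12 wild-type C57BL/6 mice aged 10 weeks, with 1 library per mouse. In 6 mice the aorta and the IVC had been joined by a needle puncture, an aortocaval arteriovenous fistula (AVF) that sends arterial flow into the vein, and in 6 sham-operated mice the same surgery was done without the puncture. Both groups held 3 female and 3 male mice, and the veins were collected on postoperative day 7.

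Matricellular proteins are secreted into the extracellular matrix, where they bind collagens, growth factors and cell surface receptors but do not carry load as collagen and elastin fibres do. They are low in most quiescent adult tissue and are made by activated fibroblasts, smooth muscle cells and macrophages during wound healing. Fibronectin is the adhesive glycoprotein of the early provisional matrix, on which tenascin, periostin, thrombospondins and CCN proteins are deposited and which cells grip through integrins. Ccn1 and Ccn2 are widely used as readouts of YAP and TAZ, which act through TEAD transcription factors in cells under mechanical load.

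The 250 bases upstream of the annotated start (the canonical transcript) of 9 of the genes were read from GRCm39 and searched on both strands for 4 motifs. The TEAD motif was spelled GGAATG. For AP-1, the dimer of Fos and Jun proteins, the letters searched were TGANTCA. The letters TATAAA were taken as a TATA box, and the CArG box is the motif bound by serum response factor. The sequences shown are the promoters of Ccn1, which holds a TEAD motif and a TATA box, and of Thbs1, the only one of the 9 with AP-1 motifs. They are written 5′ to 3′ along the gene, and the capitals mark every motif found. The Ccn1 sequence is chr3:145355739-145355988 (minus strand), with a TEAD motif on the opposite strand and a TATA box. The Thbs1 sequence is chr2:117941724-117941973 (plus strand), with 2 AP-1 motifs, whose palindromic match on both strands was counted once.
Ccn1: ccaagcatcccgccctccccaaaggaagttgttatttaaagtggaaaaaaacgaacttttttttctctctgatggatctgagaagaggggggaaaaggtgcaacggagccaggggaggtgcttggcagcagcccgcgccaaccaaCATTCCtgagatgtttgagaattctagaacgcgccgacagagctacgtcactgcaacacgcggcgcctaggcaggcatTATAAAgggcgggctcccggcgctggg
Thbs1: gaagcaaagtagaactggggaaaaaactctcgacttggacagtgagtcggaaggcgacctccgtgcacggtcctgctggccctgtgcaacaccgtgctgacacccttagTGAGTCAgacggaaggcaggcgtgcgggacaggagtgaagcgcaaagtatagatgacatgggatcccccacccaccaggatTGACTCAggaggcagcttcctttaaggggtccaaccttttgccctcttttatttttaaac

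A TEAD motif was found in 3 of the 9 promoters (Ccn1, Cthrc1 and Spp1) and in 11.7% of the promoters of the 14375 tested protein-coding genes. AP-1 motifs were found in 1 of the 9 and in 4.77% of all promoters, and a TATA box in 2 of the 9 (Ccn1 and, on the opposite strand, Thbs2) and in 7.66% of all. None of the 9 held a CArG box, which 1.15% of all promoters held. The motifs did not overlap each other in these windows. These are matches of letters in a short window and were not tested as sites.

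The libraries held 15177881 to 22717423 counts (median 18708602 for AVF and 20582468 for sham), and the least count of a member in a library was 90. In AVF female 1, 46.0% of counts were of ribosomal RNA, with mitochondrial ribosomal RNA counted in, against 2.39% to 12.6% elsewhere. Libraries AVF male 2 and AVF female 2 stood apart by hepatocyte transcripts. The summed level of 9 hepatocyte markers was 2893 and 8898 normalized CPM in them and 3.03 to 6.48 in the other 4 AVF libraries. Results that changed without these 2 libraries are given with and without them. Normalized CPM are the depth-scaled counts of a gene after library sizes were adjusted by TMM scaling, which assumes that most genes do not change.

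mRNA expression of this group was increased in the AVF. A gene was called a differentially expressed gene (DEG) when edgeR's quasi-likelihood test, run over 15912 genes, gave an adjusted p below 0.05 and the log2 fold change was 1 or more in size. Of the 10 genes, 7 were DEG with higher expression in the AVF (Cthrc1, Ccn2, Fn1, Postn, Tnc, Thbs2 and Sparc) and none was lower. Over all tested genes, 4.77% were DEG and 3.37% were DEG with higher expression. Thbs1 also had an adjusted p value under 0.05, below the fold change threshold, which brought the count to 8 of 10 against 8.63% of all genes that were higher by this criterion. In the same 8 genes every AVF library was above every sham library, a separation shown by 4.55% of all genes, while Ccn1 and Spp1 overlapped between the groups. The median log2 fold change was 1.31 over the 10 genes and -0.01 over all tested genes. In RNA of a whole vein, more cells of a type and more RNA per cell cannot be told apart.

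**Figure D1:**
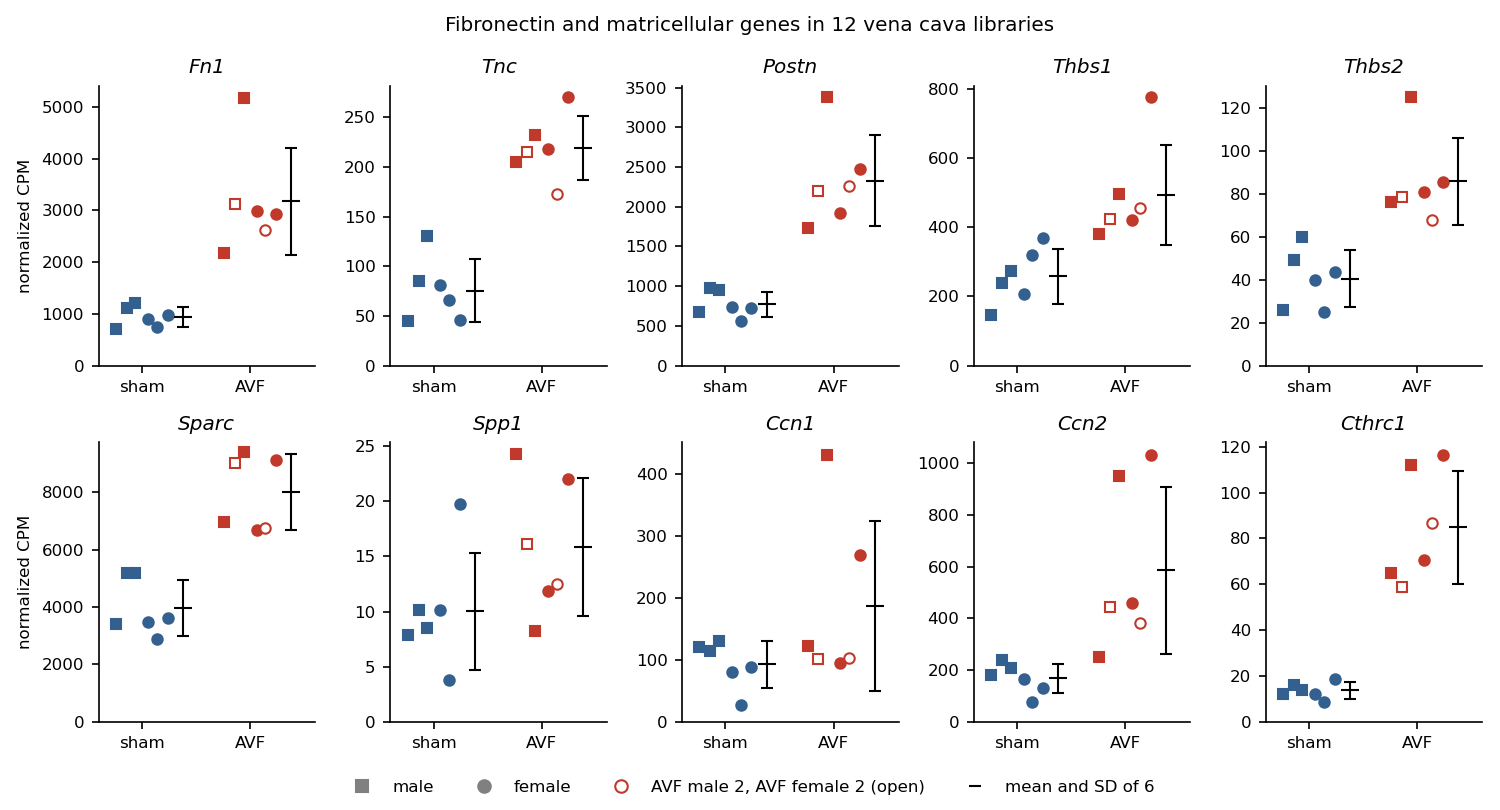
Normalized CPM of each gene (linear axis from 0) in the 6 sham and 6 AVF libraries; squares are male and circles female mice, open symbols are AVF male 2 and AVF female 2, and the bar to the right of each group is the mean and SD of 6. The AVF libraries lie above every sham library for 8 genes, and Spp1 and Ccn1 overlap.

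**Figure D2:**
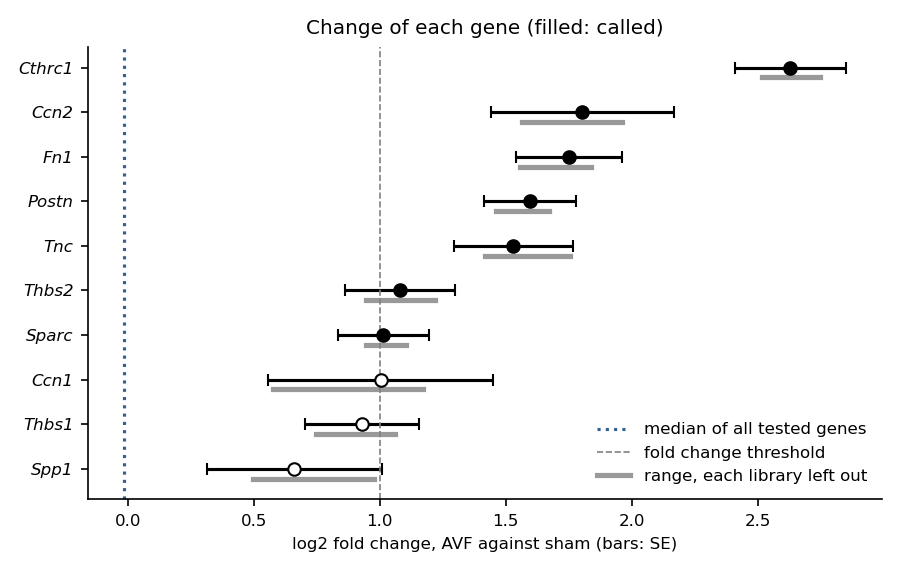
Log2 fold change of each gene, AVF against sham, with its SE (black) and the range when each of the 12 libraries is left out in turn (grey); filled points are DEG, the dashed line is the fold change threshold and the dotted line the median of all tested genes. Cthrc1 has the highest value at 2.63, and the grey ranges of Sparc, Thbs2, Ccn1 and Thbs1 cross the threshold.

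Fn1 (ENSMUSG00000026193, chr1:71624673-71692419 on GRCm39, minus strand) encodes fibronectin. Its normalized CPM were 715 at the lowest, 934 at the median and 1215 at the highest in sham, and 2182, 2961 and 5178 in AVF. The lowest AVF library was 1.80-fold above the highest sham library, and AVF male 3 was well above the other AVF libraries, of which the next was at 3122. Expression was 3.37-fold higher in AVF, a log2 fold change of 1.75 ± 0.21 (SE; adjusted p = 0.00036, edgeR). Hepatocytes make the fibronectin of plasma. The libraries with hepatocyte transcripts, AVF male 2 and AVF female 2, had 3122 and 2624 normalized CPM of Fn1, inside the range of the other 4, and the log2 fold change without them was 1.82 ± 0.23.

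Tnc (ENSMUSG00000028364, chr4:63878014-63965443, minus strand) encodes tenascin C, an oligomeric glycoprotein that weakens adhesion of cells to fibronectin. Sham libraries were at 44.7, 73.6 and 131 normalized CPM (lowest, median and highest) and AVF libraries at 173, 217 and 270. The groups did not overlap, and the AVF libraries were closer together than the sham libraries, with an SD of log2 CPM of 0.21 in AVF and 0.59 in sham. Expression was 2.89-fold higher in AVF (log2 fold change 1.53 ± 0.24, adjusted p = 0.0019, edgeR).

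Postn (ENSMUSG00000027750, chr3:54268501-54298471, plus strand) encodes periostin, which binds collagen and fibronectin and is a usual marker of activated fibroblasts. In sham its lowest, median and highest normalized CPM were 556, 730 and 973. The corresponding values in AVF were 1736, 2229 and 3378, all above sham, with AVF male 3 the highest. Expression was 3.02-fold higher in AVF (log2 fold change 1.60 ± 0.18, adjusted p = 0.00031, edgeR). Fn1 was the member whose pattern over the 12 libraries was closest to that of Postn, with a root mean square (RMS) difference of 0.16 between their log2 CPM after each gene was centred on its own mean.

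Thbs1 (ENSMUSG00000040152, chr2:117941974-117957616, plus strand) encodes thrombospondin 1, which activates latent TGF-beta, binds Cd36 and Cd47 and is also carried by platelets. Its normalized CPM were 145, 256 and 368 (lowest, median and highest) in sham and 380, 440 and 776 in AVF. The groups met without overlap, since the lowest AVF library was 1.03-fold above the highest sham library. The highest value by a wide gap was that of AVF female 3, and the next AVF library was at 495. The log2 fold change of 0.93 ± 0.23 had an adjusted p value of 0.0203 (edgeR) but was under the fold change threshold, and it was 1.01 (adjusted p = 0.0388) without AVF male 2 and AVF female 2, 1.00 without sham female 2 and 1.06 without sham female 3, where Thbs1 was a DEG. None of the 7 platelet markers was a DEG in edgeR, 2 had an unadjusted p value under 0.05 (toward lower expression) and 1 was a DEG in DESeq2. Their summed level was 20.0 to 72.1 normalized CPM in AVF, 42.0 to 215 in sham and 37.8 in AVF female 3. The 5 erythroid (red cell) markers summed to 19631 normalized CPM in AVF female 3, the highest of the 12 libraries. Their sum was 10676 in AVF male 2, 3731 to 7170 in the other AVF libraries and 4009 to 6540 in sham. The part of blood cells in the values of Thbs1 was not tested.

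Thbs2 (ENSMUSG00000023885, chr17:14885761-14914528, minus strand) encodes thrombospondin 2, a close relative that takes part in collagen fibril assembly and limits vessel growth. Sham libraries were at 25.1, 41.8 and 59.8 normalized CPM (lowest, median and highest) and AVF libraries at 67.8, 79.9 and 125. AVF male 3 was far above the others, the next being 85.8, and the groups did not overlap. Expression was 2.12-fold higher in AVF (log2 fold change 1.08 ± 0.22, adjusted p = 0.0084, edgeR). Near the threshold, it was 0.95 without AVF male 3, 0.98 without sham male 1 and 0.98 without sham female 2, and Thbs2 was then no DEG although its adjusted p stayed under 0.05. The ratio of Thbs1 to Thbs2 counts within a library was 3.95 to 9.05 in AVF and 4.57 to 12.7 in sham, so it overlapped.

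Sparc (ENSMUSG00000018593, chr11:55285317-55314067, minus strand) encodes a collagen-binding glycoprotein that takes part in collagen assembly. It was by far the most abundant of the 10. Lowest, median and highest normalized CPM were 2896, 3546 and 5200 in sham and 6677, 7998 and 9413 in AVF, with no overlap. Expression was 2.02-fold higher in AVF (log2 fold change 1.01 ± 0.18, adjusted p = 0.0039, edgeR), just above the threshold. With 1 library left out it was between 0.95 and 1.10, and it was under 1 without AVF male 2, AVF male 3, AVF female 3, sham male 1, sham female 1, sham female 2 or sham female 3, with an adjusted p value of 0.012 at most.

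Spp1 (ENSMUSG00000029304, chr5:104582165-104589235, plus strand) encodes osteopontin, a ligand of integrins and Cd44 that macrophages and smooth muscle cells secrete. It had the lowest level of the group, with normalized CPM of 3.82, 9.33 and 19.7 in sham and 8.25, 14.3 and 24.3 in AVF (lowest, median and highest). Only AVF male 1 and AVF female 3 were above every sham library, and AVF male 3, which was high for most of the other genes, was the lowest AVF library. The log2 fold change of 0.66 ± 0.35 did not pass the test (adjusted p = 0.215, edgeR). Of 10 macrophage markers 2 were DEG with higher expression and 8 had an adjusted p value under 0.05 in that direction, and their summed level was 1136 to 1852 normalized CPM in AVF and 622 to 1044 in sham, without overlap. Their part in the values of Spp1 was not tested.

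Ccn1 (ENSMUSG00000028195, chr3:145352720-145355738, minus strand) encodes a CCN protein, formerly Cyr61, that binds integrins. Its normalized CPM were 26.5, 101 and 130 (lowest, median and highest) in sham and 95.3, 113 and 431 in AVF. AVF male 3 at 431 and AVF female 3 at 269 were above all sham libraries, while the other 4 AVF libraries, at 95.3 to 123, lay within the sham range. The log2 fold change was 1.00 ± 0.45 and did not pass the test (adjusted p = 0.143, edgeR). It was 0.58 without AVF male 3. The spread of Ccn1 in AVF, an SD of log2 CPM of 0.91, was at the 91st percentile of all tested genes, whose median was 0.289, and its SD in sham, 0.85, was at the 93rd.

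Ccn2 (ENSMUSG00000019997, chr10:24471333-24474900, plus strand) encodes connective tissue growth factor, which takes part in fibrosis downstream of TGF-beta and YAP. Sham libraries were at 77.2, 175 and 241 normalized CPM (lowest, median and highest) and AVF libraries at 249, 453 and 1033. The highest were again AVF female 3 at 1033 and AVF male 3 at 950, followed by AVF female 1 at 461. AVF male 1, the lowest, was only 1.03-fold above the highest sham library. Expression was 3.49-fold higher in AVF (log2 fold change 1.80 ± 0.36, adjusted p = 0.0081, edgeR). The SD of log2 CPM was 0.79 in AVF and 0.58 in sham, at the 88th and the 84th percentile of all genes. Ccn2 had 2.03 to 4.84 counts per count of Ccn1 in AVF and 1.49 to 2.91 in sham.

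**Figure D3:**
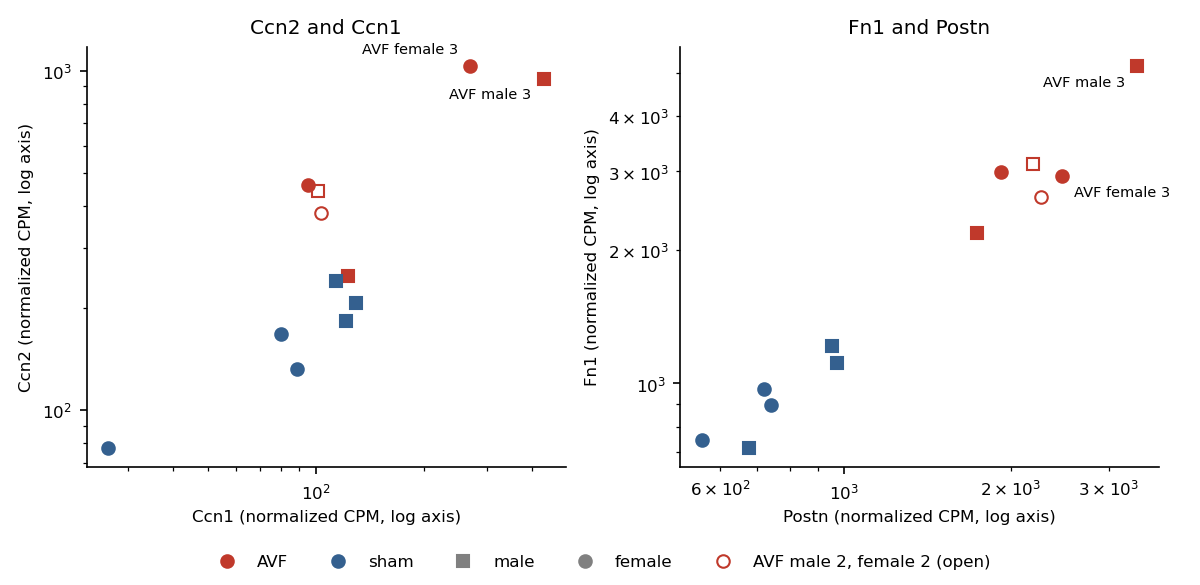
Ccn2 against Ccn1 (left) and Fn1 against Postn (right) in the 12 libraries, in normalized CPM on log axes; red is AVF, blue sham, squares male, circles female, and open symbols AVF male 2 and AVF female 2. AVF male 3 and AVF female 3 lie apart at the top for the CCN genes, and for Fn1 and Postn the AVF and sham libraries fall into separate groups.

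Cthrc1 (ENSMUSG00000054196, chr15:38940246-38950518, plus strand) encodes a secreted glycoprotein of activated fibroblasts that was first described in injured arteries. Lowest, median and highest normalized CPM were 8.78, 13.1 and 18.9 in sham and 58.8, 78.5 and 117 in AVF. The lowest AVF library was 3.11-fold above the highest sham library, the widest gap of the 10. Expression was 6.19-fold higher in AVF (log2 fold change 2.63 ± 0.22, adjusted p = 6.4e-05, edgeR), and the gene ranked 6 by adjusted p value among the 15912. The log2 fold change was between 2.52 and 2.75 with each library left out.

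Between the sexes, none of the 10 genes was a DEG in edgeR or DESeq2. The threshold for the sexes was a 1.5-fold change, and 0.0316% of 22123 genes passed it in AVF and 0.0818% of 21992 genes in sham. Female against male AVF gave an unadjusted p value under 0.05 for 0 of the 10 genes. In sham 2 of the 10 had one, Ccn1 and Ccn2, both lower in the females. The share of all genes at this unadjusted threshold in sham was not counted, so 2 of 10 cannot be set against it. Sham Ccn2 was 126 ± 45.6 normalized CPM in the females and 210 ± 29.2 in the males (mean ± SD of 3), and sham Ccn1 was 65.1 ± 33.7 and 122 ± 8.07. These differences did not pass after adjustment over all genes (adjusted p = 0.484 for Ccn2 and 0.526 for Ccn1, edgeR).

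The change with AVF was compared between females and males by the interaction of operation and sex. No gene of 22163 passed it (0%), and DESeq2 called 5. An unadjusted p value under 0.05 was found for 1069 of the 22163, close to the share that chance alone gives at that threshold. Over the 10 genes the difference in log2 fold change, females minus males, ran from -0.44 ± 0.73 for Spp1 to 0.91 ± 0.68 for Ccn2 (SE), and none had an unadjusted p value under 0.05. Such SE leave room for differences of the size of the change itself in both CCN genes. Fn1 was 870.7 ± 116 normalized CPM in sham females and 2849 ± 197 in AVF females, and 1014 ± 265 in sham males and 3494 ± 1532 in AVF males. Cthrc1 was 13.3 ± 5.17 and 91.2 ± 23.4 in females and 14.2 ± 1.97 and 78.5 ± 29.0 in males.

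The normalized CPM of the 10 genes summed to 1.20% to 2.03% of the TMM-adjusted library size in AVF (median 1.43%). In sham the sum was 0.472% to 0.819% (median 0.587%), with no overlap. These are not shares of all counts, of which ribosomal RNA took 46.0% in AVF female 1. Sparc made up most of the sum in sham, 60.0% to 64.6% of it, and 46.3% to 58.0% in AVF. Fibronectin was 20.7% ± 3.11 (SD, n = 6) of the sum in AVF and 14.95% ± 1.11 in sham, and periostin was 15.3% ± 1.41 and 12.2% ± 0.530. The ratio of Fn1 to Sparc counts within a library was 0.313 to 0.550 in AVF and 0.211 to 0.269 in sham, and that of Postn to Sparc was 0.243 to 0.359 in AVF and 0.183 to 0.213 in sham. Neither ratio overlapped between the groups, so these genes rose unequally within the same libraries.

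**Figure D4:**
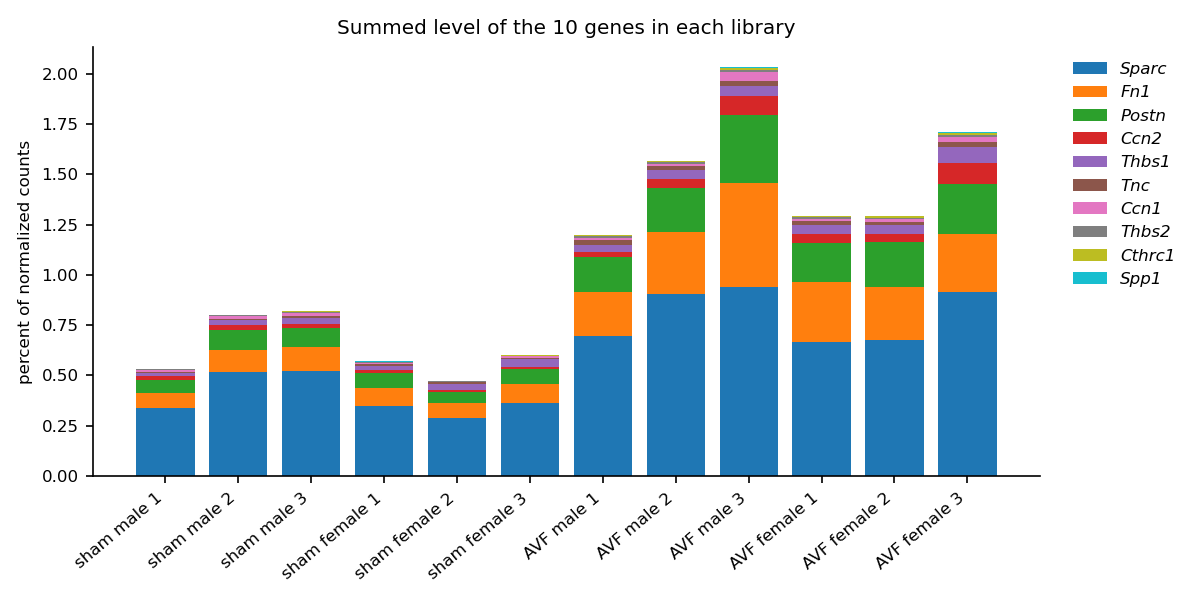
Summed normalized CPM of the 10 genes in each library as a percent of its TMM-adjusted library size (on the axis, percent of normalized counts). Bars are stacked by gene, sham on the left and AVF on the right. The sums are 0.472% to 0.819% in sham and 1.20% to 2.03% in AVF, and Sparc, Fn1 and Postn make up most of each bar.

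Levels of different genes were compared per kb of exons. On this scale Sparc was first, at 1875 ± 309 normalized CPM per kb in AVF and 929 ± 230 in sham (mean ± SD, n = 6). It was followed in both groups by Postn (266 ± 65.8 in AVF), Fn1 (200.3 ± 65.6), Ccn2 (184 ± 102), Ccn1 (92.1 ± 67.2) and Thbs1 (76.1 ± 22.4), whose ranges overlapped between neighbours. Spp1 was the last in both groups, at 5.58 ± 2.20 in AVF. The mean of Cthrc1 was above that of Tnc in AVF, at 43.5 ± 12.6 and 27.4 ± 4.04, and below it in sham, at 7.03 ± 1.81 and 9.50 ± 4.02, with overlapping ranges in both. With the length of the longest coding transcript the order was the same in AVF, and Cthrc1 was above Tnc in sham as well. The levels themselves depended on the length used. With the longest coding transcript, Postn was at 696 ± 172, Fn1 at 377 ± 124 and Ccn2 at 215 ± 119 normalized CPM per kb in AVF.

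Among 24 relatives of these genes, 21 were tested, and Ccn6, Ibsp and Dmp1 were under 1 normalized CPM in every library. Of the 21, 4 were DEG with higher expression. Fstl1, a follistatin-like protein of the SPARC family, was 691 ± 159 normalized CPM in sham and 2178 ± 530.3 in AVF (log2 fold change 1.66 ± 0.19, adjusted p = 0.00031, edgeR). The others were CCN proteins, with log2 fold changes of 2.65 for Ccn5, 2.16 for Ccn4 and 1.94 for Ccn3. Ccn5, which lacks the C-terminal domain of the family, rose from 19.4 ± 11.4 to 122 ± 58.6 normalized CPM, and Ccn4, a target of Wnt signalling, from 10.9 ± 4.87 to 49.0 ± 12.7. Ccn3 was 89.2 ± 38.2 in sham and 342 ± 125 in AVF. Sparcl1, the nearest paralog of Sparc, fell by 0.58 ± 0.13 on the log2 scale (adjusted p = 0.0129, edgeR), below the fold change threshold, from 556 ± 107 to 371 ± 36.8. In all, 5 relatives had an adjusted p value under 0.05 and were higher, 3 were lower, and the median log2 fold change of the 21 was 0.21.

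Of 19 receptors of these proteins that were tested, 9 were higher at an adjusted p value under 0.05, none was lower, and 1 was a DEG. That was Itga4, the alpha chain of integrins that bind fibronectin and osteopontin, at 43.9 ± 10.1 normalized CPM in sham and 100.3 ± 33.3 in AVF (log2 fold change 1.19 ± 0.22, adjusted p = 0.0044, edgeR). The fibronectin receptor chain Itga5 was higher by 0.73 ± 0.13 on the log2 scale and Itgb5, a partner of alpha v in binding vitronectin and osteopontin, by 0.76 ± 0.13. Cd44, the receptor of hyaluronan and osteopontin, was higher by 0.62 ± 0.11, as was Fzd6, a Wnt receptor to which Cthrc1 can bind, by 0.62 ± 0.10. The median of the list was 0.46, and Itgb6 was under 1 normalized CPM in every library.

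Other targets of YAP and TEAD went in both directions. Of 21 tested, 1 was a DEG with higher and 1 with lower expression, 6 were higher and 1 lower at an adjusted p value under 0.05, and the median log2 fold change was 0.12. Tgfb2, a TGF-beta ligand, rose from 34.6 ± 5.95 to 128 ± 35.4 normalized CPM (log2 fold change 1.89 ± 0.18, adjusted p = 0.00013, edgeR). Igfbp3, which binds insulin-like growth factors, fell by 1.60 ± 0.29 on the log2 scale, from 164 ± 75.8 to 54.1 ± 16.9. Below the fold change threshold, Ccdc80, Ajuba and Nuak2 were higher by 0.89 ± 0.15, 0.79 ± 0.12 and 0.91 ± 0.22. The summed level of the list was 2171 to 3025 normalized CPM in AVF, with AVF male 3 the highest, and 1764 to 2535 in sham.

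Immediate-early genes, the class to which Ccn1 and Ccn2 also belong, contained no DEG among the 19 tested in edgeR or DESeq2, and 1 had an unadjusted p value under 0.05. The median log2 fold change was 0.00. The lowest adjusted p value was that of Nr4a2, an orphan nuclear receptor, which fell by 0.86 ± 0.19 on the log2 scale (adjusted p = 0.0134, edgeR), and the next were Egr2 (0.43 ± 0.33), Fos (-0.71 ± 0.57), Fosb (0.70 ± 0.57) and Ier2 (-0.33 ± 0.31), none of which passed. Their summed level was 1023 normalized CPM in AVF male 3, the highest of the 12 libraries, and 500.5 in AVF female 3, within the sham range of 384 to 889. So 1 of the 2 libraries with high Ccn1 was also high for these genes. Their part in the values of Ccn1 and Ccn2 was not tested.

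**Figure D5:**
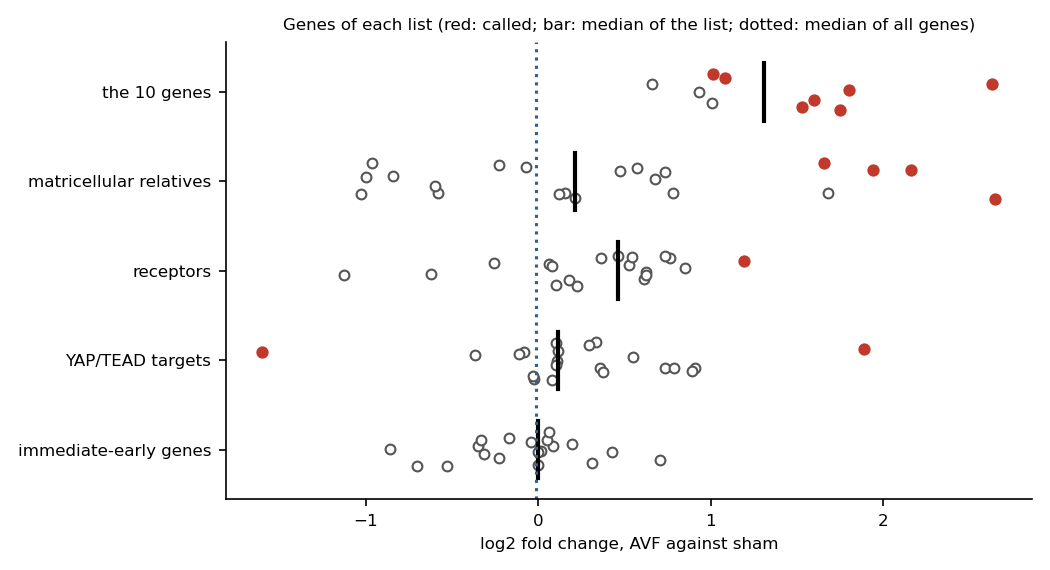
Log2 fold change (AVF against sham) of the tested genes in each list; each point is a gene, red points are DEG, black bars are list medians and the dotted line is the median of all tested genes. The 10 genes have a median of 1.31, and the medians of the other lists lie between 0.00 and 0.46.

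The tissue of origin was checked with markers of cell types. The 7 smooth muscle markers and the 6 endothelium markers had summed levels of 2376 to 4975 and 1650 to 2821 normalized CPM over the 12 libraries, and none of them was a DEG in edgeR or DESeq2 or had an unadjusted p value under 0.05. Of 10 myofibroblast and fibroblast markers, 3 were DEG with higher expression and 7 were higher at an adjusted p value under 0.05, with a median log2 fold change of 0.72, below the 1.31 of the 10 genes. Their summed level was 23395 to 33882 normalized CPM in AVF and 10227 to 20113 in sham, also without overlap. Most of this sum came from the collagen genes Col1a1 and Col3a1. Their means were 8287 and 14816 normalized CPM in AVF and 3284 and 6590 in sham. Pdgfra, Dcn and Lrrc15 did not pass, with log2 fold changes of 0.04 ± 0.16, 0.12 ± 0.17 and 0.09 ± 0.30 (SE). Brown fat markers were lower, with 3 of 5 DEG and summed levels of 13.7 to 197 in AVF and 90.9 to 1437 in sham. All 9 hepatocyte markers were DEG with higher expression, through the libraries named above. Markers of white adipocytes, neurons, Schwann cells, striated muscle, T and B cells and the erythroid lineage held no DEG in edgeR, at 5, 5, 4, 4, 6 and 5 genes tested. Among these, 0, 5, 4, 2, 1 and 0 genes had an unadjusted p value under 0.05, and DESeq2 called 3 neuron markers and 1 of T and B cells. All 5 neuron and all 4 Schwann cell markers were lower in AVF, with median log2 fold changes of -1.08 and -0.77. The striated muscle markers summed to 521 normalized CPM in sham female 1 and 1035 in sham female 3. Their sum was 1.33 to 1.65 in the other sham libraries and 1.08 to 35.8 in AVF. Of these markers, Myl7 and Myh6 were not tested. The part of these cell types in the change of the 10 genes was not tested. The count of DEG among the 10 was 8 without AVF male 2 and AVF female 2, where the log2 fold change of Thbs1 was 1.01. Over all genes 471 were DEG there, against 759 with all 12 libraries.

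Genes with patterns most like each member were sought among the 14378 tested protein-coding genes that are not members, by the RMS difference of centred log2 CPM over the 12 libraries. Postn and Fn1 had the same nearest gene, Fstl1, at 0.14 and 0.18, followed by Mfap5, a microfibril protein, for Postn and Gxylt2, a xylosyltransferase, for Fn1. Sparc was nearest to Bmp1, the procollagen C-proteinase, and Igfbp7, at 0.11 for both. Col3a1 and Col1a2, chains of the fibrillar collagens, were nearest to Thbs2, at 0.17 for both. For Tnc they were Adamts12, a metalloproteinase, and C1qtnf5, at 0.30 for both, and for Thbs1 Grb10, an adaptor of growth factor receptors, and Col6a1, at 0.24 and 0.26.

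Cthrc1 was nearest to Ckap2 and Cdk1, genes of dividing cells, at 0.31 and 0.32. Cdk1 rose from 2.94 to 13.6 normalized CPM (log2 fold change 2.21). Ccn2 was nearest to Ccdc68 (0.28) and Prokr2 (0.29, a gene of 1.08 normalized CPM in AVF), and Ccn1 to Bmx (0.48) and Adamts6 (0.50). Spp1 was nearest to Dctd (0.39, a gene of 1.42 normalized CPM in AVF) and Il7r (0.40). The median RMS difference to all genes was between 0.66 for Sparc and 1.40 for Cthrc1. A gene with a large change is far from most others on this scale, and these distances carry no test.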

How the data were processed

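Poly(A) RNA of 12 IVC was sequenced from stranded libraries. After trimming (PRINSEQ, Trimmomatic 0.39) the authors aligned reads with STAR 2.7.7a to GRCm39, with Ensembl's annotation, and the deposited table holds expected counts from RSEM 1.3.3, not normalized and not filtered. Reads shared by similar genes are split by estimate. Names and coordinates came from GENCODE M39, on the same build but a later release; 665 of 55414 identifiers had no name.

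Counts were rounded and normalized by TMM (trimmed mean of M values), and tested with edgeR 4.0.16 (quasi-likelihood test, R 4.3.3, limma 3.58.1) with Benjamini-Hochberg adjustment over all tested genes. AVF against sham used genes above 1 CPM in 2 or more libraries, and comparisons of the sexes used genes with more than 12 counts in all (the filters of the study). SE were derived from the F statistic. Log2 CPM for spread and likeness used a prior count of 1. Scripts were tested on simulated data. Libraries of a group differed by more than counting error (chi-square over degrees of freedom of 36.8 or more), so none was a duplicate.

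The 10 genes, the gene lists and the markers were chosen with earlier results of these data known. All 10 genes are named. From the lists of relatives, receptors, YAP/TEAD targets and immediate-early genes, the 5 genes of lowest adjusted p and every DEG were named, and for each member the 2 most similar genes. The promoter of 1 gene is not reported here. Groups came from the sample labels; the subgroups of AVF in the study are not in the labels and were not used as groups, but AVF male 2 and AVF female 2 are the libraries that the study set apart, so the alternative without them leaves its other subgroup against sham.

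Alternatives were edgeR's exact test, DESeq2 1.42.0, RLE size factors in edgeR, no filter, unrounded counts, no fold change threshold, sex as a covariate, a replicate block, no ribosomal RNA genes, AVF without AVF male 2 and AVF female 2, other lengths, and each library left out; the interaction without these 2 libraries was added after values were seen.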

Additional observations from a re-analysis of the deposited data

Results flagged for a closer look

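The highest and lowest library of each of the 20 groups of 6 (10 genes, AVF and sham) were compared with the nearest other library by Dixon's ratio, the gap over the range. For independent, normally distributed values, chance takes it past the 95% critical value in about 1 of 20 groups. Here 3 groups were past it, all in AVF. The genes share the same libraries and the CPM were not log-transformed, so the 3 cannot be set against that rate. Thbs1 was 776 normalized CPM in AVF female 3, and the next AVF library was at 495 (ratio 0.710). Thbs2 was 125 normalized CPM in AVF male 3, and the next was at 85.8 (ratio 0.688). Fn1 was 5178 normalized CPM in AVF male 3, and the next was at 3122 (ratio 0.686). Without AVF male 3 the log2 fold change of Fn1 was 1.56, and that of Thbs2 was 0.95, under the threshold. Without AVF female 3 that of Thbs1 was 0.75.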

How the results depend on the processing

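No member changed direction under any of the 22 alternatives run for it. Cthrc1, Fn1, Postn, Tnc and Ccn2 were DEG under all of them, and Ccn1 and Spp1 under none. Sparc lost the fold change threshold in 7 and Thbs2 in 3, all with a library left out, and Thbs1 gained it, or needed none, in 4 (0.93 without a fold change threshold, and the 3 values given for it in the report). Of the 10 genes, 7 were DEG under every other setting, 8 without a fold change threshold and 8 without AVF male 2 and AVF female 2, and 5 to 7 with each library left out. Over all genes, 759 were DEG, 2190 without a fold change threshold, 471 without AVF male 2 and AVF female 2, and 470 to 1023 with each library left out, the extremes being sham female 2 and AVF female 1; it was 503 without AVF male 2. Without a fold change threshold, 8 relatives, 9 receptors, 7 YAP/TEAD targets and 1 immediate-early gene passed. Receptors had 2 DEG in DESeq2, with sex as a covariate and without AVF male 2 and AVF female 2. With each library left out, receptors had 1 to 2, relatives 4 to 6, YAP/TEAD targets 2 to 3 and immediate-early genes 0. In the main test, Itga2b was the only receptor besides Itga4 with a log2 fold change of 1 or more in size. It was lower in AVF, at -1.12 ± 0.44 (SE, adjusted p = 0.103, edgeR), and is also 1 of the platelet markers. For mice of a sex with the same number, the correlation of their deviations from the group means was -0.14 to 0.17 over 6 pairs. Of 12 libraries, 1 correlated best with its own number. No pairing by number was seen, though groups of 3 libraries could not exclude one. With the number as a replicate block, 668 genes and 7 of the 10 were DEG, and 0 of the 10 between the sexes or in the interaction. The comparisons of the sexes held 0 members under each alternative.

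With 3 mice per sex in a group, even some differences between the sexes larger than their SE are not resolved. Sham Ccn2, at -0.74 ± 0.26 on the log2 scale (females minus males, SE), had an adjusted p value of 0.484 (edgeR). Spp1 had the fewest counts, 90 to 470 per library, and Ccn1 the largest SE. Other scalings moved the median of all genes by 0.0124 or less on the log2 scale.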
